A study of Mus musculus with 8 samples.

Results

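The genes described here make RNAs that are not translated and that work, or are thought to work, in the nucleus. They are the small nucleolar RNA (snoRNA) host genes Gas5, Snhg1, Snhg3, Snhg5, Snhg6, Snhg8 and Snhg12, and the nuclear RNAs Malat1 and Neat1. These 9 symbols were matched to rows of the count matrix by Ensembl identifier, and 7 of the 9 had a row, out of 43629 genes in all. Snhg1 (ENSMUSG00000108414) and Snhg8 (ENSMUSG00000104960) had no row under these identifiers, so their levels were not analysed here. All 7 genes with a row passed the filter on low counts and are among the 12413 genes tested.

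The cells were the mouse lymphoma lines #1.1 and #1.2, derived from C57BL/6 animals in which an immunoglobulin heavy chain enhancer (Eμ) drives a Myc transgene in the B lineage. Early passage cells were kept for 2 h in 250 nM JQ1, which blocks the acetyl-lysine pocket of the BET bromodomain proteins, or in the solvent DMSO. Both lines carry the transgene in every group, so there is no group without it. Each of the 4 groups (2 lines, 2 treatments) had 2 RNA-seq libraries, 8 in all. The labels do not state that the libraries of a group came from separate cultures, so p-values measure the spread between libraries, which may be technical. The comparison asks how RNA levels change within hours of BET inhibition.

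A snoRNA host gene is transcribed as a long precursor whose introns are trimmed to snoRNAs. These snoRNAs guide methylation or pseudouridylation of ribosomal and spliceosomal RNA, while the spliced exons often leave the nucleus and are degraded by nonsense-mediated decay. Many host transcripts begin with a run of pyrimidines, a 5′ terminal feature shared with ribosomal protein mRNAs. Malat1 is an abundant RNA of nuclear speckles, where splicing factors concentrate, and Neat1 is the scaffold of paraspeckles, bodies that hold RNA-binding proteins such as NONO and SFPQ.

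The libraries held 10347453 to 13049877 reads assigned to genes. A share of 12.3 to 13.1% of reads in the DMSO libraries and 14.0 to 14.4% in the JQ1 libraries was assigned to no gene. The counting matched these reads to no feature, and whether they lay in introns or between genes is not given. Their part in the results below was not tested. Of 7 B lineage markers all 7 were tested, with a summed level of 1255 to 2120 CPM, the reads of a gene relative to the scaled library size, and all 7 were lower after JQ1 (median log2 change -0.79), where 31.3% of all genes tested were lower. The 5 T cell markers summed to at most 0.248 CPM (3 of them at 0 in every library), the 2 NK markers to at most 0.993 CPM, the 5 myeloid markers to 0.532 to 2.08 CPM, the 3 erythroid markers to at most 0.0826 CPM, and the 3 stromal markers were at 0. In bulk RNA, fewer cells that express a gene and less RNA per cell cannot be told apart.

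The start sites of the host genes are shown because the 5′ pyrimidine run is a sequence feature that these genes are known for. Each line gives 50 bases of the GRCm38.p6 genome from RefSeq, 5′ to 3′ on the strand of the gene, from 20 bases before to 30 bases from the annotated start. Capitals mark the longest unbroken run of C or T found between 10 bases before and 20 bases from the start. Of the 9 genes 7 had a promoter entry, and of the Gas5 entries the one at chr1:161035146-161035195 is given.
Gas5: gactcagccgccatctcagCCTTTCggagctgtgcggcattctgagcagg
Snhg5: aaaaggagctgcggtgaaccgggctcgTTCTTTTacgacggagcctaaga
Snhg12: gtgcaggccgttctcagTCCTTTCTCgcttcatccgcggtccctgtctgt
Snhg3: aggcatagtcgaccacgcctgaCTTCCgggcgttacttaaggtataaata
Snhg1: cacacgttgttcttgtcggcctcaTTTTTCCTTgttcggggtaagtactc
Snhg8: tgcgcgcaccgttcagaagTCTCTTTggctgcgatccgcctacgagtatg
Malat1: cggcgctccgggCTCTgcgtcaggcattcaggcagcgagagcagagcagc

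Snhg1 and Snhg12 had the longest of these runs, at 9 bases, a length that 7.11% of 32851 RefSeq promoters reach in the same window. Snhg5 and Snhg8 had runs of 7 bases, reached by 17.9% of promoters. The Gas5 run was 6 bases, reached by 28.7%. The other Gas5 entry, not printed, had a run of 3 bases, reached by 88.3%, so the entry shown is the one with the longer run. Snhg3 had 5 bases, reached by 46.4%, and Malat1 had 4 bases, reached by 68.6%. The Snhg12 run began at base -3 and the Snhg8 and printed Gas5 runs at base -1, so these runs cover the annotated start. With the start as base 1, the runs of Snhg3, Snhg1 and Snhg5 began after it, at bases 3, 5 and 8. The Malat1 run began at base -8 and ended before the start. In the whole 300-base windows, read on both strands, the E-box CACGTG bound by MYC and MAX was found in 0 of the 7 genes and in 7.15% of all promoters. The TATA box letters TATAAA were found in 4 of 7 genes (Snhg1, Snhg3, Snhg5 and Snhg8) and in 13.6% of promoters. The 1 match of Snhg3 lies after its annotated start, within the bases printed above, so not where a TATA box is placed. The place of a match in the window was not used in these counts. The ETS letters CCGGAA were found in 3 of 7 and in 14.9%, CCAAT in 3 of 7 and in 37.4%, and the GC box GGGCGG in 4 of 7 and in 35.7%. None of these motifs contains another. A match is only a match of letters.

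JQ1 moved the members in opposite directions: 3 of the 5 snoRNA host RNAs and Malat1 rose, by small amounts, and Neat1 fell to 0.329 of its DMSO level. Averaged over both lines, 4 of 7 genes rose (Gas5, Snhg5, Snhg12 and Malat1), 1 fell (Neat1), and Snhg3 and Snhg6 did not pass the test. These calls are from edgeR's quasi-likelihood F test with adjusted p under 0.05 over all 12413 genes, of which 30.7% rose and 31.3% fell. The share of members that passed, 5 of 7, is to be read against the 62% of all genes that passed in either direction. In line 1.1, 3 genes rose (Gas5, Snhg5 and Malat1) and 1 fell, where 24.9% of all genes rose, 26.1% fell and 51% did either. In line 1.2 the same 3 rose and the same 1 fell, where 24.4% of all genes rose, 25% fell and 49.4% did either. Counted by libraries alone, 6 genes had both JQ1 libraries above both DMSO libraries in line 1.1 (36.7% of all genes) and 4 in line 1.2 (37.2%), and Neat1 had both below in each line (36.6% and 38%). The median log2 change was 0.18 over the 7 genes and 0.18 over the 5 hosts, against 0.0036 over all genes tested, where the median size of a change was 0.252. Tested against a fold change of 1.5, 0 of the 4 rises passed and the fall of Neat1 did. Over all genes, 1458 of 12413 passed that test, 40.2% of them rises.

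**Figure D1:**
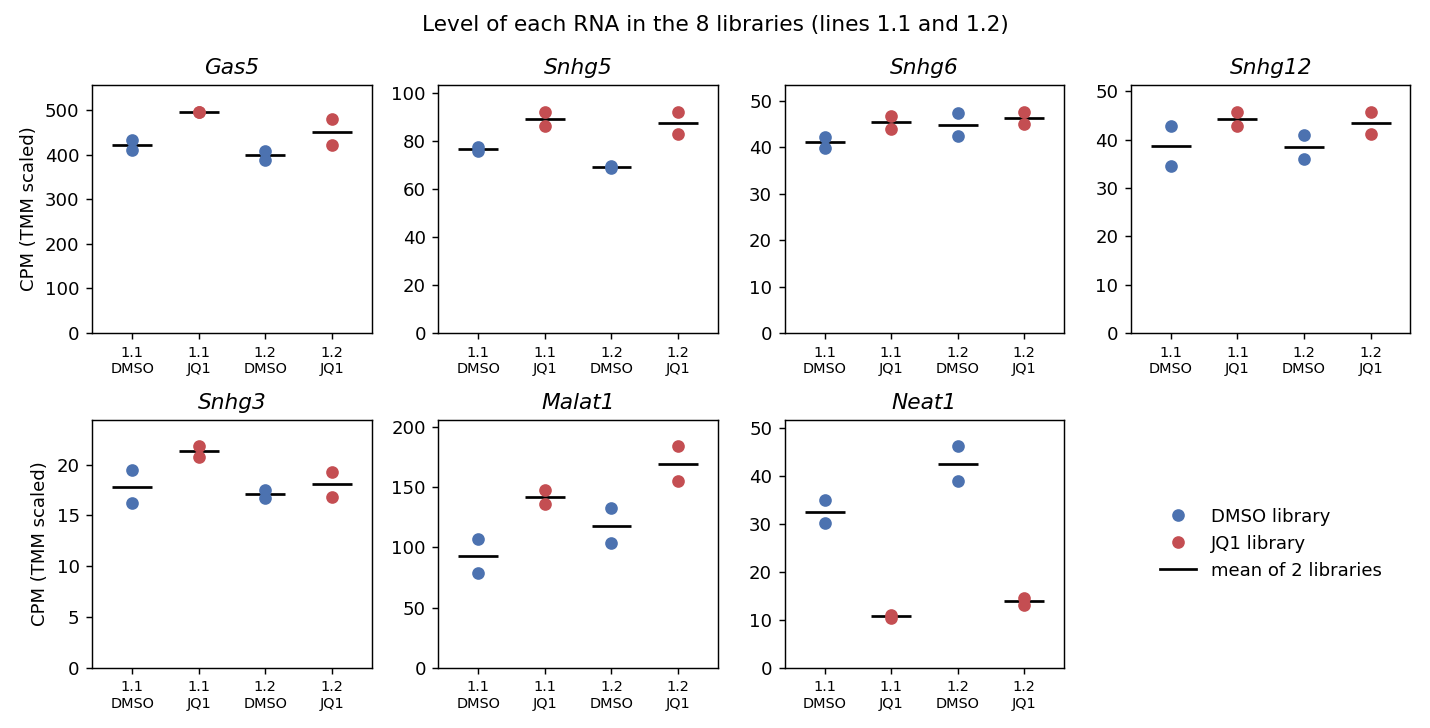
Level of each of the 7 RNAs in the 8 libraries, in CPM scaled by the trimmed mean of M-values (TMM). Points are libraries, bars the mean of 2 libraries, blue DMSO and red JQ1; every vertical axis starts at 0. All JQ1 libraries lie below all DMSO libraries for Neat1, and above those of the same line for Gas5, Snhg5 and Malat1.

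Gas5 (ENSMUSG00000053332, chr1:161034422-161038539, plus strand) holds 9 snoRNA genes and is also known as an inhibitor of the glucocorticoid receptor. In line 1.1 it was at 432 and 411 CPM in DMSO and at 497 and 495 CPM in JQ1. In line 1.2 it was at 388 and 409 CPM in DMSO and at 422 and 479 CPM in JQ1. The JQ1 libraries were above the DMSO libraries in each line, and the second JQ1 library of line 1.2 was well above the first. Over both lines Gas5 changed by 0.20 ± 0.037 on the log2 scale (mean ± SE; edgeR adjusted p = 3.9e-05), a rise to 1.15 times, and 27.5% of genes tested rose at least as far. In line 1.1 the log2 change was 0.23 (edgeR adjusted p = 0.000626) and in line 1.2 it was 0.18 (edgeR adjusted p = 0.00746). The call in line 1.2 was lost without the first DMSO library of that line (0.14) and without its second JQ1 library (0.08), and with the level of Gm42418, a row described with Malat1, in the model (0.12). Gm42418 and treatment move together in line 1.2, where 2908 of 12413 genes passed with it in the model, against 6136 without. Zbtb37, on the minus strand, overlaps the start of Gas5, and its own log2 change was 0.01 (edgeR adjusted p = 0.893).

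Snhg5 (chr9:88521050-88522929, minus strand) holds 2 snoRNA genes of the C/D box class. It was at 75.9 and 77.8 CPM in DMSO and at 92.5 and 86.5 CPM in JQ1 in line 1.1. It was at 69.7 and 69.1 CPM in DMSO and at 83.2 and 92.2 CPM in JQ1 in line 1.2. In both lines the groups did not overlap. Over both lines Snhg5 changed by 0.28 ± 0.044 on the log2 scale (mean ± SE; edgeR adjusted p = 5.92e-06), a rise to 1.21 times. In line 1.1 the change of 0.22 (edgeR adjusted p = 0.00413) lost its call without the first JQ1 library of that line (0.17). In line 1.2 the change of 0.34 (edgeR adjusted p = 8.8e-05) lost its call with the Gm42418 level in the model (0.18). Gm42418 and treatment move together in that line.

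Snhg12 (chr4:132308623-132311024, plus strand) holds 4 snoRNA genes, among them Snora16a. It was at 42.8 and 34.5 CPM in DMSO and at 45.8 and 42.8 CPM in JQ1 in line 1.1. In line 1.2 it was at 36.0 and 41.0 CPM in DMSO and at 41.2 and 45.8 CPM in JQ1. The groups meet at 42.8 CPM in line 1.1 and lie close in line 1.2. Over both lines a log2 change of 0.18, with an SE of 0.064, passed the test (edgeR adjusted p = 0.0184), while neither line alone did (0.19, edgeR adjusted p = 0.0907, and 0.17, edgeR adjusted p = 0.121). The averaged call was lost with library totals as scaling (0.14), with DESeq2 (0.19), and without any of 4 libraries: the first JQ1 of line 1.1 (0.16), the second DMSO of line 1.1 (0.11), the first DMSO of line 1.2 (0.13) or the second JQ1 of line 1.2 (0.14).

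Snhg3 and Snhg6 did not pass the averaged test. Snhg3 (chr4:132348014-132353686, minus strand), host of Snora73a, was at 19.4 and 16.3 CPM in DMSO and at 21.8 and 20.8 CPM in JQ1 in line 1.1, and at 16.7 and 17.5 CPM against 19.3 and 16.8 CPM in line 1.2. Its groups did not overlap in line 1.1 and overlapped in line 1.2, with an averaged log2 change of 0.16 (95% interval 0.0040 to 0.32, edgeR adjusted p = 0.0699). That change passed without the first DMSO library of line 1.1 (0.23) and without the second JQ1 library of line 1.2 (0.21). Snhg3 shares its strand and part of its span with Rcc1, the nucleotide exchange factor of Ran, whose log2 change was -0.08 (edgeR adjusted p = 0.0912). Snhg6 (chr1:9941959-9944118, minus strand), host of Snord87, was at 42.3 and 39.9 CPM in DMSO and at 46.7 and 44.0 CPM in JQ1 in line 1.1, and at 42.3 and 47.4 CPM against 45.0 and 47.7 CPM in line 1.2. Its log2 change was 0.09 (95% interval -0.018 to 0.20, edgeR adjusted p = 0.138).

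The snoRNA rows held almost no counts in these libraries. Of 27 snoRNA rows inside the 9 host and nuclear genes, 23 had 0 reads in all 8 libraries. In the annotation used here, merged exons cover 3760 of the 4118 bases of Gas5 and all 2402 of Snhg12. Under this annotation, reads that fit both a snoRNA and its host would be counted for neither. A row with 0 reads therefore does not show that snoRNA reads were absent. Snora73a had at most 1 read per library, Snord87 had 3 to 16 and Snora16a had 7 to 22. By the annotation used here Snora16a lies wholly in Snhg12 exon sequence, so its row would hold 0 reads. The annotation used for counting, whose release is not given, may therefore differ here. The remaining row, Snora24, lies inside Snhg8 and was followed up after its values were seen. Snora24 is an H/ACA box snoRNA, a class that guides pseudouridylation, and its sequence is shown with the H box and the terminal ACA in capitals (chr3:123507937-123508066, minus strand, GRCm38).
Snora24: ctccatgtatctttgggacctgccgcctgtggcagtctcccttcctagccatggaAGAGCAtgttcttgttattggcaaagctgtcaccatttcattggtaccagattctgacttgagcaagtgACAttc

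The Snora24 row had 50 and 36 reads in DMSO and 85 and 90 in JQ1 in line 1.1, and 31 and 47 in DMSO and 74 and 87 in JQ1 in line 1.2. All 4 JQ1 libraries were above all 4 DMSO libraries. Averaged over lines the row rose by 1.07 ± 0.14 on the log2 scale (mean ± SE; edgeR adjusted p = 4.66e-07), with 1.06 in line 1.1 and 1.08 in line 1.2, and 3.21% of genes tested rose at least as far. The call in line 1.2 was lost with the Gm42418 level in the model (0.96, edgeR adjusted p = 0.117). In that line Gm42418 and treatment move together and cannot be told apart. Snhg8 itself has no row, so reads of the spliced or unspliced host RNA that cover these bases and reads of the snoRNA cannot be told apart.

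Malat1 (ENSMUSG00000092341) and Neat1 (ENSMUSG00000092274) lie next to each other on the minus strand of chromosome 19, at chr19:5795690-5802672 and chr19:5824708-5845478, with 22035 bases between them. Both long RNAs end without a poly(A) tail: RNase P cuts a tRNA-like structure from the precursor and the end folds into a triple helix in which a genomic A-rich tract pairs with U-rich stretches. The 100 bases that end in this tract are shown for each, with the tract in capitals. Neat1 also has a short form that is polyadenylated in the usual way, and its last 60 bases are shown with the AATAAA signal in capitals. The annotated Malat1 model runs on for 292 bases past the tract. The long Neat1 model is 20771 bases, the short one 3004, and their common bases cannot be assigned to either in counts per gene. Small annotated RNAs lie inside both genes, and reads that fit more than 1 gene are not counted for either.
Malat1: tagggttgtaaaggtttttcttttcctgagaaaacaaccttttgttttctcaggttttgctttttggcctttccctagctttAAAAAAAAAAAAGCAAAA
Neat1 long: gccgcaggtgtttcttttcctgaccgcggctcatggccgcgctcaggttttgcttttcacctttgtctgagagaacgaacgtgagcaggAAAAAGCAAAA
Neat1 short: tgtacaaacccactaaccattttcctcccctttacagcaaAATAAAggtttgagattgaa

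Malat1 rose in both lines. It was at 79.1 and 107 CPM in DMSO and at 147 and 136 CPM in JQ1 in line 1.1. In line 1.2 it was at 103 and 133 CPM in DMSO and at 155 and 184 CPM in JQ1. The groups did not overlap within either line, although the DMSO libraries of a line lay far apart. Averaged over lines Malat1 rose by 0.57 ± 0.072 on the log2 scale (mean ± SE; edgeR adjusted p = 2.62e-07), a rise to 1.49 times, and 9.19% of genes tested rose at least as far. The change was 0.62 in line 1.1 (edgeR adjusted p = 2.61e-05) and 0.52 in line 1.2 (edgeR adjusted p = 0.000127). Gm42418, a row that overlaps ribosomal RNA sequence and often tracks leftover rRNA, was at 361 and 977 CPM in DMSO and 475 and 493 CPM in JQ1 in line 1.1, and at 383 and 341 CPM against 1296 and 2644 CPM in line 1.2. When log2 CPM of Gm42418 entered the model, the Malat1 change was 0.70 in line 1.1, 0.31 averaged, and -0.09 in line 1.2 (edgeR adjusted p = 0.742), where Gm42418 and treatment move together and cannot be told apart.

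Neat1 fell in both lines and was the largest change among the members. It was at 30.2 and 35.0 CPM in DMSO and at 11.1 and 10.5 CPM in JQ1 in line 1.1. In line 1.2 it was at 39.0 and 46.2 CPM in DMSO and at 13.1 and 14.5 CPM in JQ1. Every JQ1 library was below every DMSO library. Averaged over lines Neat1 changed by -1.61 ± 0.078 on the log2 scale (mean ± SE; edgeR adjusted p = 9.26e-15), a fall to 0.329 of the DMSO level, and 2.15% of genes tested fell at least as far. It was -1.58 in line 1.1 (edgeR adjusted p = 4.69e-11) and -1.63 in line 1.2 (edgeR adjusted p = 5.92e-12), and it passed under every alternative tried, with averaged values from -1.74 to -1.54.

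**Figure D2:**
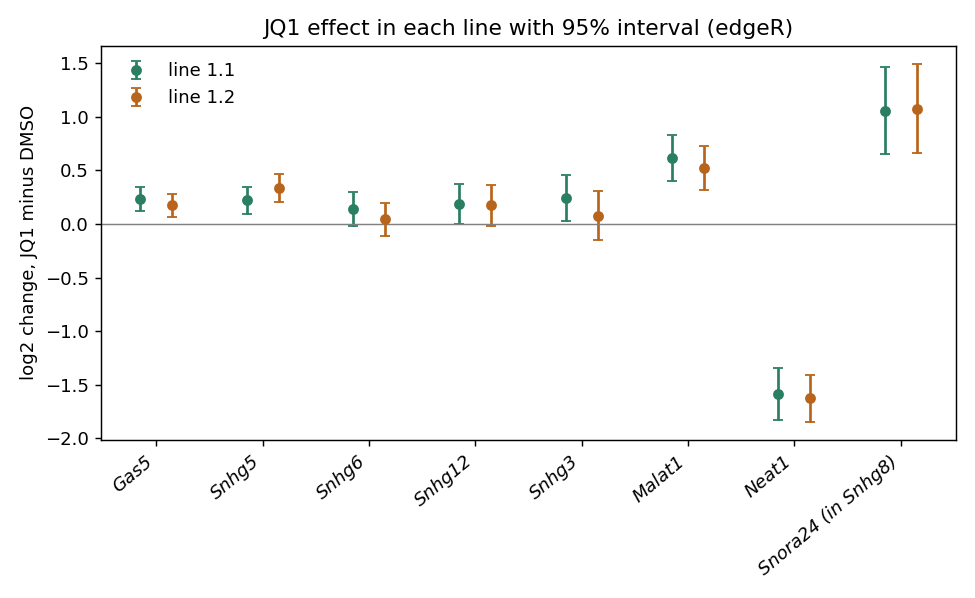
Log2 change with JQ1 (JQ1 minus DMSO) for the 7 RNAs and the Snora24 row inside Snhg8, in line 1.1 (green) and line 1.2 (orange); bars are 95% intervals from edgeR. Neat1 lies at -1.58 and -1.63, Snora24 at 1.06 and 1.08, and the other 6 RNAs between 0.04 and 0.62.

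Malat1 and its neighbour Neat1 moved apart after JQ1. The ratio of Malat1 to Neat1 reads was 2.62 to 3.07 in the 4 DMSO libraries and 11.9 to 13.3 in the 4 JQ1 libraries. Frmd8, a protein-coding gene 4224 bases from Neat1, had a log2 change of 0.19 (edgeR adjusted p = 0.00332), a rise where Neat1 fell.

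**Figure D3:**
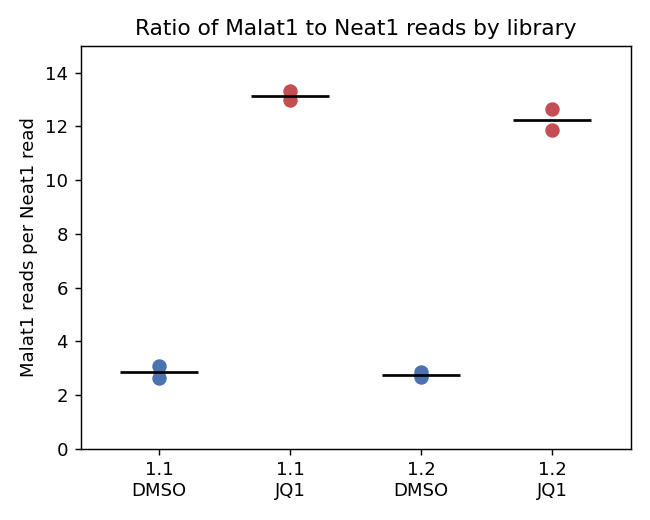
Ratio of Malat1 to Neat1 read counts in each of the 8 libraries, on a linear axis from 0; points are libraries and bars the mean of 2. The DMSO libraries lie between 2.62 and 3.07 and the JQ1 libraries between 11.9 and 13.3.

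Other neighbours of the hosts moved in both directions. Trnau1ap, a selenocysteine tRNA-associated protein gene 739 bases from Snhg12, had a log2 change of 0.54 (edgeR adjusted p = 4.62e-07). Slc3a2, the heavy chain of amino acid transporters, 106 bases from Snhg1, had one of 0.17 (edgeR adjusted p = 0.000112). Gm17300, a gene antisense to Snhg3, had one of 0.34 (edgeR adjusted p = 8.57e-05). Without a stated strand setting its reads cannot be separated from those of Snhg3. On the lower side were Sgk3, a kinase gene 41114 bases from Snhg6, at -0.70 (edgeR adjusted p = 1.82e-08), and Syncrip, an RNA-binding protein gene 38476 bases from Snhg5, at -0.52 (edgeR adjusted p = 1.28e-12). Mcmdc2, on the opposite strand, overlaps the end of Snhg6 and had a log2 change of 0.15 (edgeR adjusted p = 0.39).

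The effect of JQ1 did not differ detectably between the lines for any member. Of the 7 interaction contrasts 0 passed in edgeR, with adjusted p from 0.762 to 0.992, 0 had an unadjusted p under 0.05, and 0 passed with DESeq2 or limma-voom. Over all genes 0.113% passed, 0.0806% with a higher and 0.0322% with a lower effect in line 1.2. The intervals remain wide: for Neat1 the difference between lines in log2 change lay between -0.38 and 0.30, and for Malat1 between -0.40 and 0.20. In DMSO, 2 of 7 members were higher in line 1.2 than in line 1.1, against 3.59% of all genes, and 0 were lower, against 3.17% (6.77% in either direction). Of the members, 2 (Neat1 and Snhg6) had both DMSO libraries of line 1.2 above both of line 1.1, which held for 23.7% of all genes, and 2 (Gas5 and Snhg5) had both below, which held for 23.1%. The Malat1 libraries of the lines overlapped. Neat1 had a log2 difference of 0.40 (edgeR adjusted p = 0.00621) and Malat1 one of 0.36 (edgeR adjusted p = 0.0442). Malat1 lost this call in 11 of 20 alternatives, among them without the first DMSO library of line 1.1 (0.14) and without the second DMSO library of line 1.2 (0.16). Neat1 lost it without the same libraries (0.28 and 0.27) and with DESeq2 (0.39, DESeq2 adjusted p = 0.142).

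Per length, Gas5 was the most abundant of the 7, and Neat1 the least. In RPKM, which divides CPM by the kilobases of merged exon, Gas5 averaged 117 (103 to 132 over libraries), Snhg5 46.7 (39.9 to 53.4) and Snhg6 38.8 (34.8 to 41.6). The ranges of Snhg5 and Snhg6 overlap. Merged exons take in every annotated model of a gene, 3760 bases for Gas5, 2402 for Snhg12 and 986 for Snhg3. The order of the hosts can therefore depend on the annotation. Snhg3 at 18.8, Malat1 at 18.7 and Snhg12 at 17.2 overlap one another, and among these 3 Malat1 had the widest range, 11.3 to 26.4. Neat1 averaged 1.20 (0.505 to 2.22) over the 20771-base long model, and 8.30 if its reads are divided by the 3004 bases of the short form. Malat1 and long Neat1 lack a poly(A) tail, so their place in this order can depend on library preparation, which was not tested. Gas5 held 53.6 to 59.9% of the reads of the 7 genes, which together were 0.0705 to 0.0868% of all gene reads.

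Genes of the same biology were listed for comparison, and their counts are to be read against the 30.7% of all genes that rose and the 31.3% that fell. Of 14 other noncoding snoRNA hosts 9 had a row and 6 were tested: 1 was higher and 5 lower, and the median log2 change was -0.27. Snhg17 (-0.56, edgeR adjusted p = 2.43e-10) and Snhg15 (-0.57, edgeR adjusted p = 1.9e-07) fell, and Zfas1, a host of C/D box snoRNAs, rose (0.24, edgeR adjusted p = 1.19e-05). The 5 members and these hosts were not tested against each other. Of 29 protein-coding snoRNA hosts 19 rose and 3 fell (median 0.13), among them Hspa8, a heat shock protein of the HSP70 family (0.51), Eif4a1, a translation initiation helicase (0.41), and Dkc1, the pseudouridine synthase dyskerin (-0.54).

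**Figure D4:**
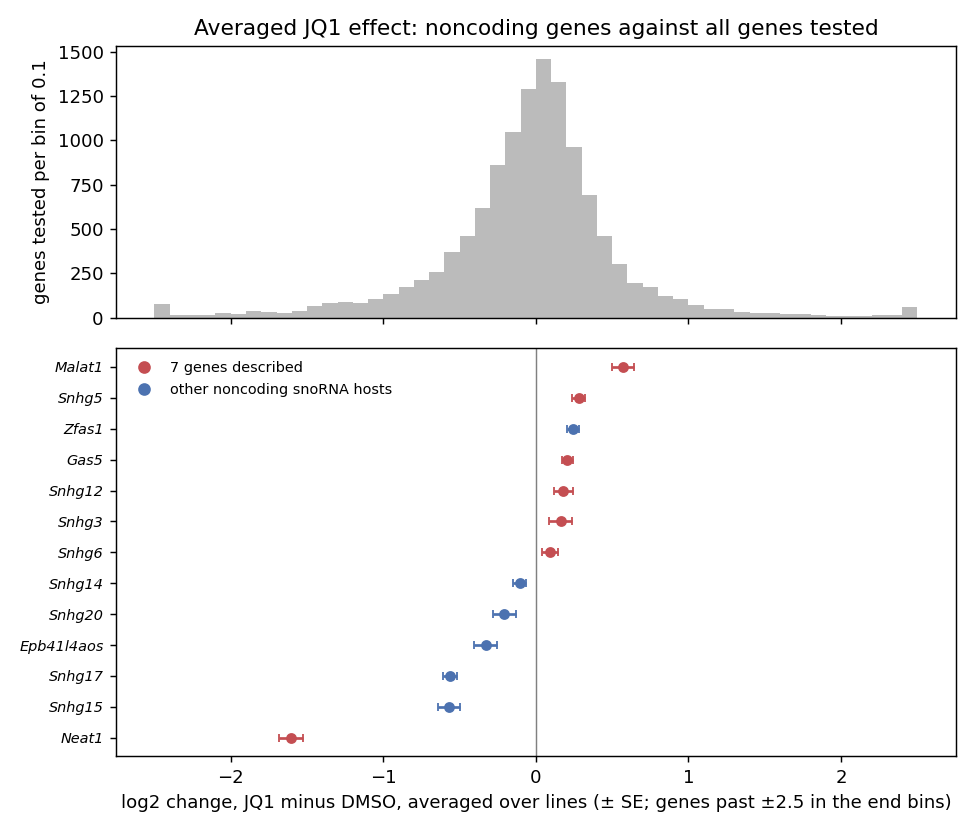
Averaged JQ1 effect as log2 change: top, histogram of all 12413 genes tested; bottom, the 7 genes described (red) and 6 other noncoding snoRNA hosts (blue), with bars of 1 SE. Malat1 and the 5 hosts lie right of 0 and Neat1 far left, and 5 of the 6 other hosts lie left of 0.

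Lists of RNA decay, snoRNP and nuclear body proteins were also counted, and whether these proteins act on the 7 RNAs was not tested. Among 17 nuclear RNA decay factors 14 fell and 1 rose (median -0.19), beside 31.3% lower and 30.7% higher over all genes. Zcchc8, a subunit of the nuclear exosome targeting complex, was at -0.54 and Exosc10, the nuclear exosome nuclease, at -0.52. Of 16 nonsense-mediated decay factors 8 rose and 1 fell (median 0.11), with Casc3 at 0.55 and Smg6 at 0.53. Of 18 snoRNP proteins 4 rose and 7 fell (median -0.04), with Gar1 at -0.39 and Nop56 at 0.29. Of 16 paraspeckle proteins 6 rose and 7 fell (median -0.07), with Tardbp at -0.53 and Hnrnpa1 at -0.43. Of 22 nuclear speckle proteins 11 rose and 4 fell (median 0.10), with Srsf2 at 0.68. Of 22 other long noncoding RNAs 20 had a row and 9 were tested: 2 rose and 4 fell (median 0.02), with Ftx at -1.79, Pvt1 at -0.86 and Mir17hg, the precursor of the miR-17 cluster, at 0.51.

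The genes whose levels most resembled those of a member were found by Pearson correlation of log2 CPM over the 8 libraries, among 8457 genes. For Gas5 they were Rabggtb (r = 0.975), Ythdf2 (0.975) and Pkn2 (0.973). For Malat1 they were Zfp426 (0.974), Itpr2 (0.973) and Gigyf1 (0.965). For Neat1 they were Parp8 (0.997), Hivep2 (0.995) and Xndc1 (0.995). All these libraries share the treatment contrast, so the values are a description with no test.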

How the data were processed

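RNA-seq was made from 8 libraries of mouse lymphoma lines. HTSeq, TopHat, Bowtie2, cutadapt 1.7, FastQC and limma are named, with the build GRCm38 (mm10), in the submitters' processing notes. Annotation release and strand setting: not given in the sources used here. The deposited values are raw counts per Ensembl gene, which the authors did not normalise. The 5 HTSeq summary lines entered neither library sizes nor tests. Reads that matched no feature were 12.3 to 14.4% and reads of several genes 1.54 to 1.67%.

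Here edgeR 4.0.16 (R 4.3.3) fitted 4 group means to all 8 libraries, with TMM scaling, filterByExpr (minimum count 10, total 15), a two-sided quasi-likelihood F test and Benjamini-Hochberg adjustment at 0.05. SEs derive from the F statistic. The fit was tested on simulated data. Alternatives were other scalings, DESeq2 1.42.0, voom of limma 3.58.1, filters, a replicate block, Gm42418 as covariate, stricter thresholds and each library left out. Coordinates are from GENCODE M21, sequences from RefSeq and GRCm38.

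Named genes were all 9 members, up to 3 per list by smallest p with at least 1 CPM, 3 most correlated genes for Gas5, Malat1 and Neat1, neighbours, and Gm42418. Some genes that this rule names are not reported here. Members and lists were chosen with earlier results of these data known.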

Additional observations from a re-analysis of the deposited data

How the results depend on the processing

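Of 686 recomputed log2 changes of the members, 618 kept their direction and side of the threshold. The fall of Neat1 passed in every alternative, so the number of members lower was 1 throughout for the averaged effect and for each line. Tested against a fold change of 1.5, 0 members were higher in the averaged effect (4 in the reported fit), in line 1.1 (3), in line 1.2 (3) and between the lines in DMSO (2). That test passed few of all 12413 genes: 1458 in the averaged effect (40.2% of them higher), 1184 in line 1.1 and 1082 in line 1.2. Between the lines in DMSO it passed 87. With Gm42418 as a covariate 0 members were higher in line 1.2, and the Malat1 change there turned to -0.085. Over all genes, 2908 of 12413 passed in line 1.2 with this covariate, 47.6% of them higher, against 6136 in the reported fit. Snhg3 passed in the averaged effect with this covariate (0.36). Between the lines in DMSO, 0 members were higher with DESeq2, 1 with at least 5 CPM in 2 libraries, 1 at a threshold of 0.01, and 1 with only the 4 libraries compared. In the same order, these settings called 306, 774, 376 and 445 of all genes in either direction, against 840 in the reported fit. Leaving out each library gave 3 to 5 members higher in the averaged effect, 2 to 5 in line 1.1 (5 without its first DMSO library), 2 to 4 in line 1.2, and 0 to 2 between the lines in DMSO. Where this left 1 library in a group, that library is assumed to vary like the other groups. With the replicate number as a block, Snhg3 passed in line 1.1 (0.25, edgeR adjusted p = 0.0470) and no other member's call changed; same-numbered libraries did not deviate together (r from -0.03 to 0.08 over 6 pairs of groups), so the numbers are not taken as pairs. A single read was worth 0.0760 to 0.0956 CPM, so rows of a few reads, such as Snord87 and Snora16a, could show only large changes.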
